A study of Mus musculus with 262 samples.

Results

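A set of 9 genes of prostaglandin signalling was followed through all deposited expression tables of a mouse kidney study. They were chosen by symbol: the cyclooxygenases Ptgs1 and Ptgs2, the prostaglandin synthases Ptges and Ptgds, the prostaglandin E2 receptors Ptger1, Ptger2, Ptger3 and Ptger4, and the degrading enzyme Hpgd. All 9 were found in every table, among 47069 genes in the 3 TPM tables (TPM is transcript abundance per length, scaled to a fixed total per sample), 24111 genes in the read count table and 29732 genes in the RPKM table.

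RNA was sequenced in 262 samples from kidneys of 2-month-old male mice. Single cells of C57BL/6 mice were captured on a microfluidic chip after sorting on DBA, c-Kit, both, or PNA, and the authors sorted their profiles into 5 types: intercalated type A (87 cells) and type B (23 cells), principal (74 cells), non-epithelial (32 cells) and proximal tubule (19 cells). DBA and PNA are plant lectins, and c-Kit is the receptor encoded by Kit. Bulk samples of C57BL/6 cells were sorted on c-Kit (2 samples) or DBA (2 samples). Bulk GFP-positive (2 samples) and GFP-negative (2 samples) cells came from the strain Atp6v1b1GFP, whose name joins GFP to Atp6v1b1, a proton pump subunit gene of intercalated cells. Single tubules were dissected by hand from C57BL/6 mice, with 11 from the cortical part of the collecting duct (CCD) and 8 from the cortical part of the thick ascending limb (cTAL). No group was treated, and the labels tie no sample to an animal, so p-values measure the spread between these samples, which may be technical.

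Prostaglandins are lipid signals made from arachidonic acid. Cyclooxygenase, encoded by Ptgs1 in a largely constitutive form and by Ptgs2 in an inducible form, makes prostaglandin H2, which terminal synthases turn into prostaglandin E2 (Ptges) or prostaglandin D2 (Ptgds). Prostaglandin E2 acts on receptors that raise calcium (EP1, Ptger1), raise cyclic AMP (EP2 and EP4, Ptger2 and Ptger4) or lower cyclic AMP (EP3, Ptger3), and is inactivated by the dehydrogenase encoded by Hpgd. In the kidney tubule, prostaglandin E2 is known as a modulator of salt and water transport in the thick ascending limb and the collecting duct.

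RefSeq promoter windows of GRCm38.p6 were matched by symbol for 8 of the 9 genes. Windows of 250 bases before the start site are shown for 3 genes whose levels separated the dissected segments most widely, Ptgs1 (chr2:36230176-36230425, plus strand) and Ptges (chr2:30903298-30903547, minus strand), both high in CCD, and Ptger3 (chr3:157566626-157566875, plus strand), high in cTAL. Capitals mark GGGCGG or its reverse complement CCGCCC.
Ptgs1: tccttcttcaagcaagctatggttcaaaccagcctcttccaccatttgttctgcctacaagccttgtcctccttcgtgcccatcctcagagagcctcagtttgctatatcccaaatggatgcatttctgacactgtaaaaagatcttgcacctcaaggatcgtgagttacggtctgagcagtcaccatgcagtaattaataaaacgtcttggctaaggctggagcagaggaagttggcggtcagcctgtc
Ptges: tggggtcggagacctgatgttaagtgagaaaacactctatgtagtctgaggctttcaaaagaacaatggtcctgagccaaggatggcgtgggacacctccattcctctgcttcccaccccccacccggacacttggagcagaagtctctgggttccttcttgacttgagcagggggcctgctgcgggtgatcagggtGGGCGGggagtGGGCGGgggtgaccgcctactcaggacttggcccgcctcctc
Ptger3: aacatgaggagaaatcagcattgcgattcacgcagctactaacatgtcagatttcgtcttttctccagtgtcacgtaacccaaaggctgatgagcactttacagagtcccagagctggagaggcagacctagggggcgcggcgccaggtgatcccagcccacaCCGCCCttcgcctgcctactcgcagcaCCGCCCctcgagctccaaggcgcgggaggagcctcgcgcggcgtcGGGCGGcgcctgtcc
The Ptges window held 2 matches, 53 and 42 bases before the start site, and the Ptger3 window held 3, at 87, 60 and 15 bases. The Ptgs1 window held 0. Among 32851 RefSeq windows of the same length, 32.7% held at least 1 match. TATAAA and TGACG, searched on both strands, were in none of the 8 windows, against 12.4% and 17.8% of all windows, and CCAAT was found in those of Ptger2 and Ptger4 (33.8% of all windows). The Ptgs1 and Ptges genes lie on chromosome 2 (36230426 to 36252272 on the plus strand and 30889471 to 30929863 on the minus strand, GENCODE M21 on GRCm38), and Ptger3 lies on chromosome 3 (157566892 to 157645888, plus strand).

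The reads assigned to genes in the GFP samples numbered 35530885 to 40815091 per sample. TPM keeps no depth, so the depth of the other samples is unknown. The number of genes at a TPM of at least 1 ranged from 7621 to 14004 per tubule, lowest in the tubules named m2_CCD2 (7621) and m3_cTAL1 (8094) in the deposited table. Marker genes matched the segment labels: the summed TPM of 4 thick ascending limb markers (Umod, Slc12a1, Cldn16, Cldn10) was 33337 to 53193 in cTAL and 35.2 to 685.6 in CCD, and that of 7 principal cell markers was 25228 to 46542 in CCD and 43.59 to 212.7 in cTAL. In bulk samples and tubules, fewer cells of a type and less RNA per cell cannot be told apart.

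The dissected tubules ask which of the genes distinguish the cortical collecting duct from the thick ascending limb. Ptges, Ptgs1, Ptger1, Ptger4 and Hpgd were higher in CCD, and Ptger3 and Ptgds were higher in cTAL. Ptgs2 and Ptger2 were near 0 in both segments and were not tested. Differences were tested with limma on log2(TPM + 1) on the 13520 genes whose tubule mean reached 1 TPM, with Benjamini-Hochberg adjustment, and a gene was called at an adjusted p under 0.05. All 7 members that were tested were called, 5 higher and 2 lower in CCD, where 18.7% of all genes tested were (13.2% higher and 5.5% lower). A member that passed the filter only through its high segment had to differ, so this count is a description.

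Ptges, the inducible microsomal prostaglandin E synthase, was at 164.5, 227.0 and 358.2 TPM (lowest, median and highest) in the 11 CCD and at 0.08, 0.34 and 2.05 TPM in the 8 cTAL. Every CCD lay above every cTAL. The log2 difference was 7.47 ± 0.25 (SE; adjusted p = 2.38e-16 by limma).

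Ptgs1, cyclooxygenase 1, was at 105.8, 177.1 and 383.7 TPM in CCD and at 0.09, 1.085 and 9.7 TPM in cTAL. The segments did not overlap, and the log2 difference was 6.01 ± 0.46 (SE; adjusted p = 4.9e-10 by limma). Within cTAL the Ptgs1 levels were spread, with 4 of 8 tubules at 1 TPM or more. These 4, at 1.67 to 9.7 TPM, were those whose column names begin with m6 or m7, and the 4 beginning with m1 to m4 were at 0.09 to 0.5 TPM. The labels do not explain these prefixes. Among m6 and m7 the 4 CCD were at 105.8 to 184.79 TPM, so the segments were also apart there.

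Ptgs2, cyclooxygenase 2, is known in the kidney cortex from the macula densa, a plaque of cells at the end of the cTAL. Its highest level was 0.42 TPM in CCD and 0.01 TPM in cTAL. The macula densa marker Nos1, summed with Avpr1b, a gene listed beside it, reached at most 0.44 TPM in any CCD and 0.02 TPM in any cTAL.

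Ptgds, lipocalin-type prostaglandin D synthase, was at 0, 3.18 and 9.58 TPM in CCD and at 0, 89.57 and 153.6 TPM in cTAL. It was at 31.27 TPM or more in 7 of the 8 cTAL and listed at 0 in the eighth, m2_cTAL1, so the segments overlapped through that tubule. The log2 difference was -3.75 ± 0.79 (SE; adjusted p = 0.00121 by limma). Levels of Hao2, a gene of the proximal tubule marker list, also separated the segments, at 46.7 to 129.9 TPM in cTAL and 0.16 to 24.54 TPM in CCD, while the median of another such marker, Slc34a1, was 9.93 TPM in cTAL and 27.88 TPM in CCD, and that of Slc5a12 was 0 in both. The part of proximal tubule RNA in the Ptgds difference was not tested.

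Ptger3, the EP3 receptor, was at 6.9, 24.75 and 36.85 TPM in CCD and at 276.3, 567.5 and 844.3 TPM in cTAL. The segments did not overlap. The log2 difference was -4.65 ± 0.30 (SE; adjusted p = 3.03e-11 by limma), and the ratio of the cTAL mean to the CCD mean was 25.1.

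Ptger1, the EP1 receptor, was at 34.41, 91.79 and 184.1 TPM in CCD and at 0.69, 6.085 and 34.1 TPM in cTAL. The groups were separated only narrowly, between the lowest CCD (m6_CCD1) and the highest cTAL (m3_cTAL1). On the log2 scale CCD exceeded cTAL by 3.66 ± 0.41 (SE; adjusted p = 3.89e-07 by limma).

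Ptger4, the EP4 receptor, was at 0.09, 16.81 and 23.79 TPM in CCD and at 0, 0.01 and 10.04 TPM in cTAL. It was at 1 TPM or more in 10 of 11 CCD and 2 of 8 cTAL, and the segments overlapped. Between the segments the difference was 2.86 ± 0.61 (SE; adjusted p = 0.0015 by limma). Ptger4 shares 1015 of 6648 exonic bases with the processed pseudogene Gm15937 on the opposite strand. Ptger2, the EP2 receptor, was listed at 0 in all 8 cTAL and reached 0.01 TPM in CCD.

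Hpgd was at 0, 26.49 and 43.26 TPM in CCD and at 0, 1.83 and 15.52 TPM in cTAL. The segments overlapped, with 2 CCD (m3_CCD1 at 0 and m2_CCD2 at 0.15 TPM) below most cTAL. On the log2 scale the difference was 2.40 ± 0.79 (SE; adjusted p = 0.0347 by limma). The Hpgd call was lost when any 1 of 12 tubules was left out (m1_cTAL1, m3_CCD2, m3_cTAL1, m4_CCD1, m4_CCD2, m4_cTAL1, m5_CCD1, m6_CCD1, m6_CCD2, m6_cTAL1, m7_CCD1 or m7_CCD2), with differences of 2.17 to 2.35 and adjusted p of 0.0527 to 0.0717 by limma.

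Among the members, 4 (Ptges, Ptgs1, Ptger1 and Ptger3) had segments that did not overlap, against 5.51% of all genes tested. The median difference over all genes was 0.31, which became -0.03 under quantile normalization, while the calls went from 1782 higher and 744 lower to 1221 higher and 1244 lower. Under that scaling the 7 called members remained called in the same direction.

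**Figure D1:**
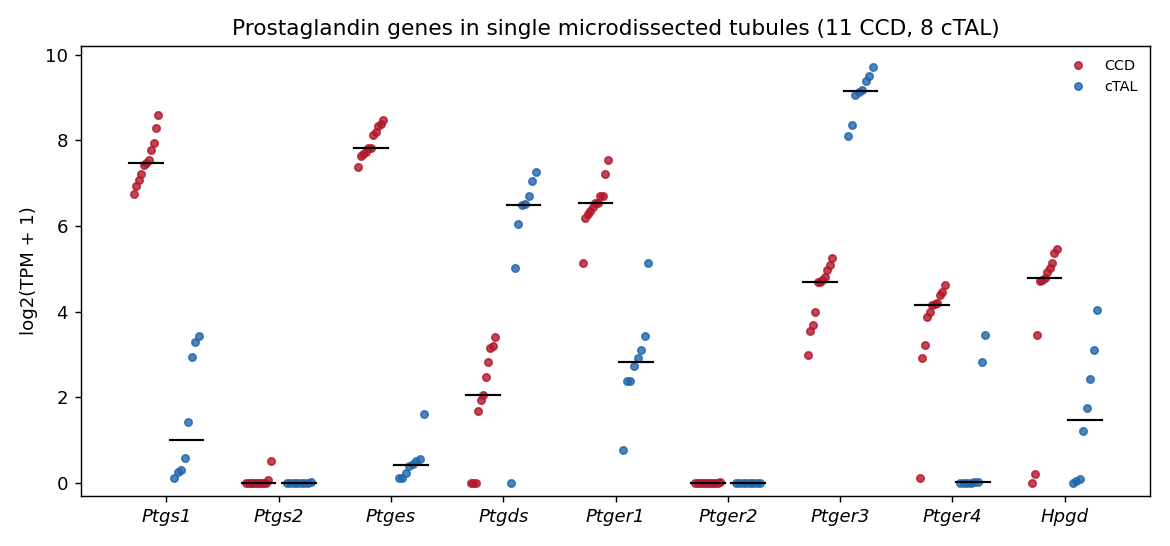
Level of each gene in each tubule, as log2(TPM + 1) on the vertical axis, with a red point per CCD (11), a blue point per cTAL (8) and a black line at the median; points of a group are spread sideways in order of value. Ptges, Ptgs1 and Ptger1 lie higher in every CCD than in any cTAL, Ptger3 lies lower, and Ptgs2 and Ptger2 lie at the floor.

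Cells sorted on c-Kit and cells sorted on DBA are compared next. Intercalated cell markers marked the c-Kit cells: the sum of 4 shared markers was 4361 to 4941 TPM in c-Kit and 325.1 to 338.5 TPM in DBA samples. The 7 principal cell markers summed to 2524 to 3400 TPM in c-Kit and 22366 to 24929 TPM in DBA samples. The 6 macrophage and leukocyte markers were also lower in c-Kit (4666.5 to 4775.5 TPM) than in DBA samples (13181 to 13822 TPM), and their part in the differences below was not tested. Of the 9 members, 7 were tested by limma on log2(TPM + 1) and all 7 were called, where 44.3% of 14341 genes tested were. Ptger3 was higher in c-Kit cells (16.1% of all genes tested were called so) and the other 6 were lower (28.1%). The 2 groups of samples did not overlap for any of the 7, nor for 73.9% of all genes tested. Without DBA replicate 1 or 2, 3600 or 3458 genes were called in place of 6348, and the 7 members were called in both cases.

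Ptger3 was at 111.9 and 99.73 TPM in the 2 c-Kit samples and at 12.02 and 16.38 TPM in the 2 DBA samples. The log2 difference was 2.83 ± 0.15 (SE; adjusted p = 2.63e-05 by limma). Thick ascending limb markers, from the segment where Ptger3 was highest, summed to 562.2 to 990.5 TPM in c-Kit and 700.5 to 828.5 TPM in DBA samples, with overlapping ranges. Some markers of cells outside the tubule were higher in c-Kit samples. The 3 mast cell markers summed to 61.79 to 77.23 TPM, against 0.32 to 0.38 TPM in DBA samples. The 2 plasma cell markers summed to 147.4 to 231.6 TPM, against 0.39 to 12.96 TPM. Others were lower in c-Kit samples, as the macrophage and leukocyte markers were. Endothelial markers were at 107.5 to 119.1 TPM, against 156.0 to 176.9 TPM. Fibroblast and mural markers were at 134.5 to 153.8 TPM, against 201.8 to 206.6 TPM. The part of these cells in the Ptger3 difference was not tested.

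Ptgs1 was at 42.36 and 31.18 TPM in c-Kit and at 235.5 and 221.5 TPM in DBA samples (log2 difference -2.62 ± 0.14 SE, adjusted p = 2.75e-05 by limma). Ptges was at 72.94 and 61.91 TPM in c-Kit and at 240.2 and 214.3 TPM in DBA samples (-1.74 ± 0.10 SE, adjusted p = 3.73e-05). Both were thus lower in c-Kit cells, Ptgs1 by the larger log2 step. Of the other prostaglandin E synthases, Ptges2 was higher in c-Kit cells, at a mean of 115.2 TPM against 84.33 TPM (0.45 ± 0.07 SE, adjusted p = 0.0024 by limma), and Ptges3 was not called (-0.04 ± 0.08 SE, adjusted p = 0.722).

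Ptgds was at 13.9 and 17.32 TPM in c-Kit and at 243.9 and 227.1 TPM in DBA samples (log2 difference -3.84 ± 0.11 SE, adjusted p = 3.95e-06 by limma). It was the member with the largest log2 difference in this comparison. The 6 proximal tubule markers summed to 1392 to 1558 TPM in c-Kit and 3141 to 3204 TPM in DBA samples, and their part in the Ptgds difference was not tested.

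Among the receptors, Ptger1 was at 18.52 and 16.76 TPM in c-Kit and at 115.0 and 102.3 TPM in DBA samples (log2 difference -2.56 ± 0.09 SE, adjusted p = 8.29e-06 by limma). Ptger4 was at 7.15 and 5.78 TPM in c-Kit and at 26.9 and 24.62 TPM in DBA samples (-1.85 ± 0.14 SE, adjusted p = 0.000112). The direction of Ptger3 was thus opposite to that of Ptger1 and Ptger4. Hpgd was at 30.25 and 36.25 TPM in c-Kit and at 119.6 and 135.1 TPM in DBA samples (-1.91 ± 0.11 SE, adjusted p = 3.73e-05). Ptgs2 stayed between 0.02 and 0.75 TPM and Ptger2 between 0.03 and 0.63 TPM over the 4 samples, and neither was tested. The median difference over all genes was -0.11, and 0.02 after quantile normalization, where 3055 genes were called higher and 3072 lower in place of 2315 and 4033; the 7 members kept their direction and their call.

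**Figure D2:**
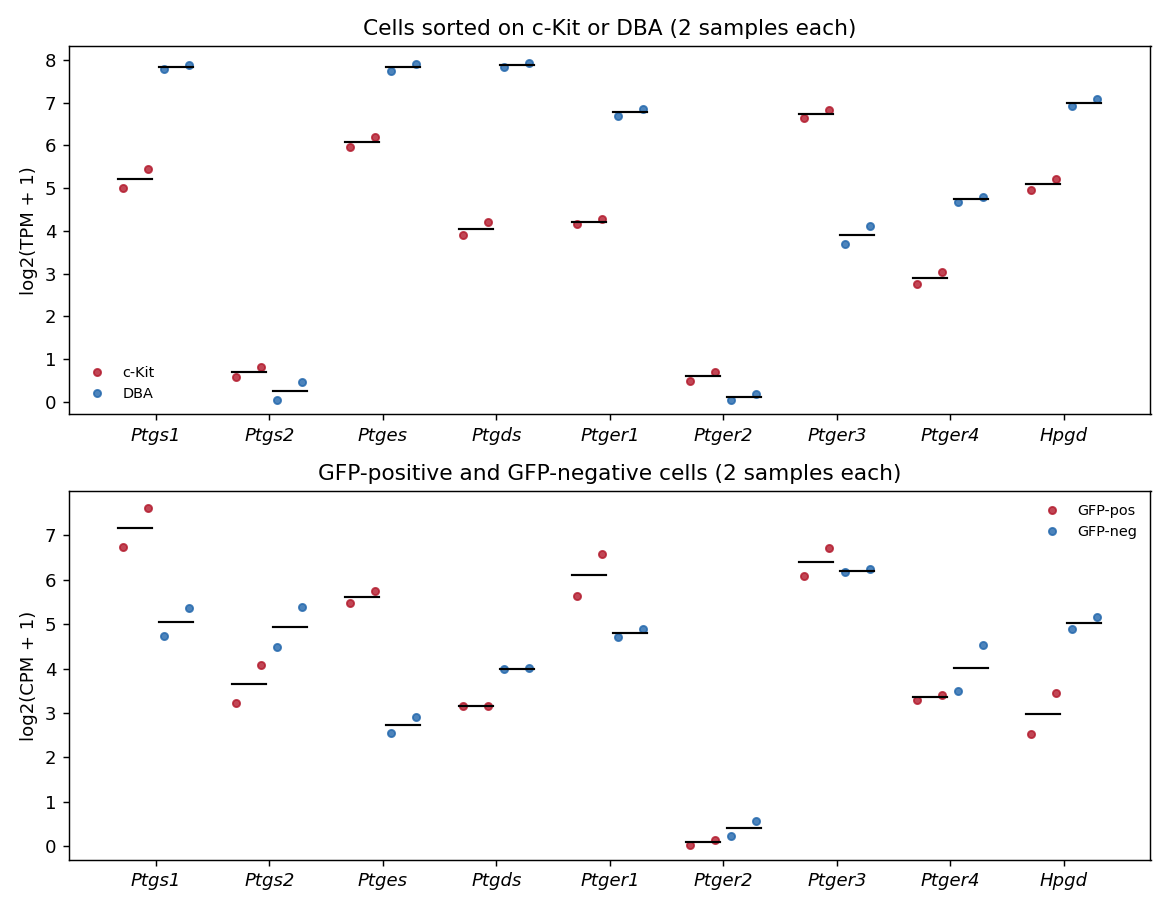
Level of each gene in the sorted bulk samples, as log2(TPM + 1) for c-Kit (red) and DBA (blue) above and as log2(CPM + 1) for GFP-positive (red) and GFP-negative (blue) below, with a point per sample, spread sideways in order of value, and a black line at the median of the 2. Ptger3 is the tested gene that lies higher in c-Kit than in DBA samples, and Ptges, Ptgs1 and Ptger1 lie higher in GFP-positive samples.

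GFP-positive and GFP-negative cells of the reporter strain were compared on read counts with edgeR's quasi-likelihood test. Levels are given as CPM, counts scaled to the library total after adjustment by edgeR's normalization factor (TMM). They are not scaled by gene length. The 4 shared intercalated markers summed to 2119 to 3079 CPM in GFP-positive and 28.17 to 48.46 CPM in GFP-negative samples. Markers of other segments moved too: the 7 principal cell markers summed to 1124 to 1867 CPM in GFP-positive and 495.6 to 608.4 CPM in GFP-negative samples, and the 4 distal convoluted and connecting tubule markers to 2552 to 3589 CPM and 151.3 to 199.8 CPM. The 6 proximal tubule markers ran the other way, at 1570 to 2514 CPM in GFP-positive and 12974 to 13187 CPM in GFP-negative samples. The part of these cells in the differences below was not tested. Of 8 members tested, 6 were called, where 32.6% of 15671 genes tested were. They were 3 higher in GFP-positive cells (15.2% of genes tested) and 3 lower (17.3%). The fractions did not overlap for 7 of the 8, nor for 70.2% of all genes tested.

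Ptges was at 43.16 and 53.04 CPM in GFP-positive and at 6.539 and 4.89 CPM in GFP-negative samples, a log2 difference of 3.07 ± 0.26 (SE; adjusted p = 8.53e-05 by edgeR). Ptgs1 was at 105.4 and 194.8 CPM in GFP-positive and at 39.94 and 25.54 CPM in GFP-negative samples (2.19 ± 0.32 SE, adjusted p = 0.00117 by edgeR). Both enzymes were higher in each GFP-positive sample than in any GFP-negative sample. Ptgs2 was at 15.95 and 8.374 CPM in GFP-positive and at 40.73 and 21.26 CPM in GFP-negative samples (-1.35 ± 0.39 SE, adjusted p = 0.0291 by edgeR). The Ptgs2 call was lost without GFP-negative replicate 1 (-0.81, adjusted p = 0.126), without GFP-positive replicate 2 (-0.96, adjusted p = 0.114) and in limma on RPKM (-1.29, adjusted p = 0.264).

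Ptger1 was at 48.37 and 94.49 CPM in GFP-positive and at 25.18 and 28.79 CPM in GFP-negative samples (log2 difference 1.40 ± 0.30 SE, adjusted p = 0.00803 by edgeR), and limma on RPKM did not call it (1.04, adjusted p = 0.106). Ptger3 was at 103.6 and 66.94 CPM in GFP-positive and at 75.08 and 70.65 CPM in GFP-negative samples, which overlapped (0.22 ± 0.22 SE, adjusted p = 0.479 by edgeR). Thick ascending limb markers were high in both fractions, at 9826 to 14688 CPM in GFP-positive and 8233.5 to 8575.1 CPM in GFP-negative samples. Ptger4 was at 8.837 and 9.642 CPM in GFP-positive and at 22.05 and 10.34 CPM in GFP-negative samples (-0.81 ± 0.37 SE, adjusted p = 0.127 by edgeR), and it was called only without GFP-negative replicate 2 (-1.25, adjusted p = 0.0138). Ptger2 had at most 0.4904 CPM and was not tested.

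Hpgd was at 4.808 and 9.853 CPM in GFP-positive and at 34.98 and 28.52 CPM in GFP-negative samples (log2 difference -2.12 ± 0.35 SE, adjusted p = 0.00227 by edgeR). Ptgds was at 7.95 and 7.925 CPM in GFP-positive and at 14.81 and 15.17 CPM in GFP-negative samples (-0.92 ± 0.27 SE, adjusted p = 0.0293 by edgeR). Neither gene's groups overlapped. The Ptgds call was lost when any 1 of the 4 samples was left out, at -0.94 and -0.90 without GFP-negative replicates 1 and 2 and at -0.95 and -0.91 without the GFP-positive ones, with adjusted p of 0.065 to 0.102. Macrophage and leukocyte markers were at 92.4 to 113.5 CPM in GFP-positive and 546.3 to 1228.5 CPM in GFP-negative samples. Endothelial markers, at 24.46 to 47.16 CPM against 97.81 to 254.8 CPM, and fibroblast and mural markers, at 25.19 to 25.62 CPM against 77.87 to 98.79 CPM, were lower in GFP-positive samples too. The part of these cells in the Ptgs2, Ptgds and Hpgd differences was not tested.

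Set side by side, the differences of Ptgs1, Ptges and Ptger1 were positive in CCD against cTAL and in GFP-positive against GFP-negative cells and negative in c-Kit against DBA cells. Ptger3 was negative in CCD and positive in c-Kit cells. The 3 comparisons were normalized separately and the differences between them were not tested.

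**Figure D3:**
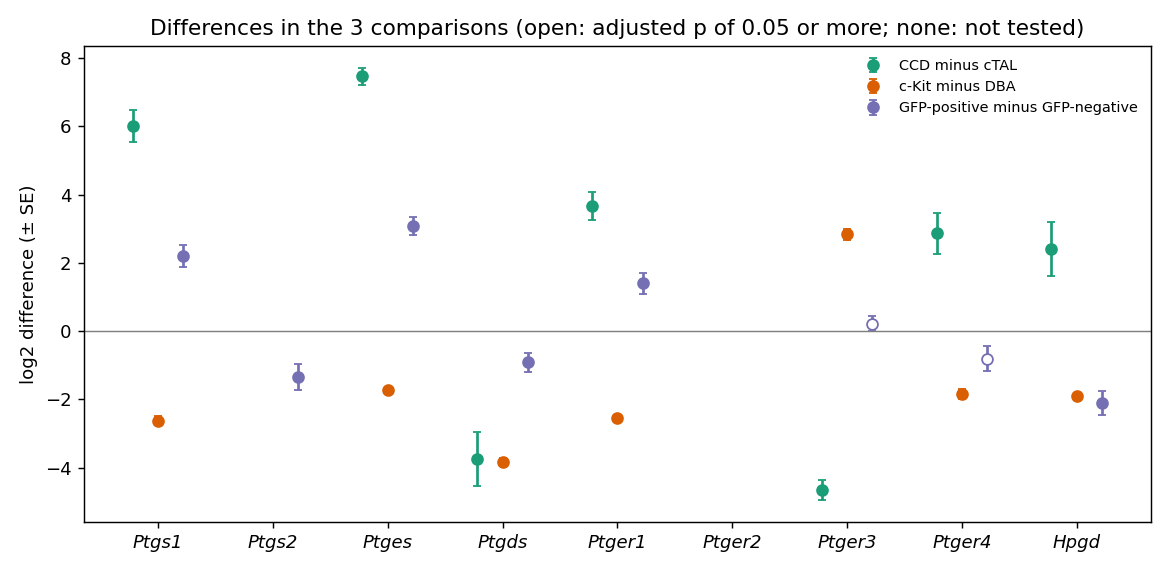
Log2 difference (vertical axis, ± SE) of each gene in CCD minus cTAL (green), c-Kit minus DBA (orange) and GFP-positive minus GFP-negative (purple). Filled points passed an adjusted p under 0.05, open points did not, and Ptgs2 in 2 comparisons and Ptger2 in all 3 were not tested. Ptges and Ptgs1 have the largest positive values, in CCD, and Ptger3 the lowest.

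The single cells place the transcripts by cell type. No cell is tied to an animal, so each type is 1 sample and no test was made. Detection means a TPM of at least 1, and intervals are exact Clopper-Pearson 95% intervals that cover counting error only. Where no cell was detected, the share a count of 0 allows is given as 3 cells of the total, which lies below the upper end of the exact interval. The highest detected share of Ptgs1, Ptges and Ptger1 was in principal cells, that of Ptger3 in type B, that of Ptgds in proximal tubule and that of Hpgd in non-epithelial cells. Ptger2 and Ptgs2 were each detected in 2 cells, all of them non-epithelial. The sample labels give PNA as the sort for 17 of 23 type B cells and for no cell of another type. Type B and the PNA sort thus cannot be told apart when type B is set against other types. The part of that sort in the type B values below, among them Ptger3 and Ptges without Ptgs1, was not tested.

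In principal cells Ptgs1 was detected in 51 of 74 (68.9%, interval 57.1 to 79.2%), with a median of 13.46 TPM and a mean of 120.0 TPM. It was detected in 7 of 19 proximal tubule cells (36.8%, 16.3 to 61.6%), 6 of 32 non-epithelial cells (18.8%), 1 of 23 type B cells (4.35%) and 10 of 87 type A cells (11.5%, 5.65 to 20.1%). The type A interval lay below that of principal cells, and the proximal tubule interval overlapped it. The type A mean of 190.6 TPM exceeded the principal cell mean, but a single cell at 16329 TPM held 98.5% of the type A sum, and without it the mean was 2.982 TPM.

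Ptges was detected in 39 of 74 principal cells (52.7%, 40.7 to 64.4%; mean 243.6 TPM), 9 of 23 type B cells (39.1%, 19.7 to 61.5%; mean 74.08 TPM), 6 of 32 non-epithelial cells (18.8%), 6 of 19 proximal tubule cells (31.6%) and 13 of 87 type A cells (14.9%, 8.2 to 24.2%; mean 5.72 TPM). The intervals of principal, type B and proximal tubule cells overlapped. Type B cells thus held Ptges with little Ptgs1: of the 9 type B cells with Ptges, 0 also had Ptgs1. In principal cells both transcripts were detected in 31 cells, Ptgs1 alone in 20, Ptges alone in 8 and neither in 15. Cells with both had a median of 3069 genes at 1 TPM or more, and cells with neither had 2372.

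**Figure D4:**
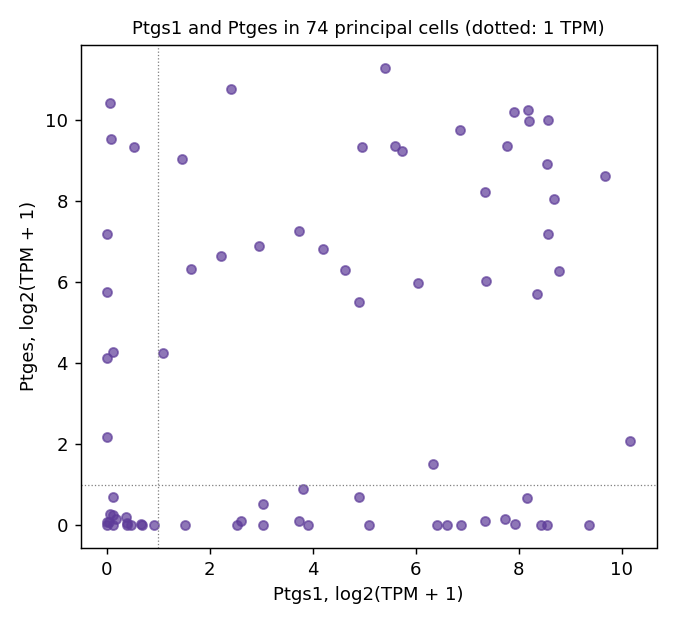
Each point is 1 of 74 principal cells, with Ptgs1 on the horizontal and Ptges on the vertical axis, both as log2(TPM + 1), and dotted lines at 1 TPM. The upper right field holds 31 cells, the lower right 20, the upper left 8 and the lower left 15.

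Aqp2, the principal cell water channel, was read beside these transcripts in other types. It was detected in all 13 type A cells with Ptges and in 45 of the 74 without, and in 9 of the 10 type A cells with Ptgs1 and in 49 of the 77 without. The 7 proximal tubule cells with Ptgs1 had a median Aqp2 of 1015 TPM and the 12 others 12.25 TPM. Among type B cells with Ptges, Aqp2 was detected in 1 of 9, with a median of 0. The 7 principal cell markers summed to 320.0 TPM over the type B means, and the type B cell with the highest Ptges (339.1 TPM) was also the 1 with Ptger4, where Aqp2 was at 52.81 TPM. In non-epithelial cells Aqp2 was detected in 5 of 6 with Ptges and 10 of 26 without, at medians of 328.4 and 0.5 TPM. With Ptger4 it was detected in 3 of 4 and without in 12 of 28. With Ptgs1 it was detected in 4 of 6 and without in 11 of 26. Ptger1 went the other way, with Aqp2 in 2 of 6 and without in 13 of 26. The part of principal cell RNA in the type A, type B, proximal tubule and non-epithelial values was not tested.

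Ptgs2 was detected in 2 of 32 non-epithelial cells (6.25%, 0.766 to 20.8%), at 144.2 and 46.99 TPM, and in no other cell. A count of 0 allows a share of up to 3.45% in type A, 4.05% in principal, 13.0% in type B and 15.8% in proximal tubule cells. Both cells with Ptgs2 held macrophage transcripts, with median levels of 1777 TPM for the complement gene C1qa and 9264 TPM for the lysozyme gene Lyz2. Most other non-epithelial cells held them too. Among the 30 without Ptgs2, C1qa was detected in 27 (median 423.0 TPM) and Lyz2 in 27 (median 446.7 TPM).

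Ptgds was detected in 10 of 19 proximal tubule cells (52.6%, 28.9 to 75.6%), with a mean of 671.7 TPM and a highest cell at 5667 TPM. The other types had shares of 3.12 to 9.2% and means of at most 1.088 TPM, and their intervals lay below that of proximal tubule cells. Within the type Ptgds was either at 6.23 TPM or more (10 cells) or listed at 0 (9 cells). Cells with Ptgds had a median of 310.3 TPM for the phosphate carrier Slc34a1, against 1298 TPM in cells without, and Hao2 was detected in 10 of 10 and 5 of 9. Aqp2 was detected in 10 of 10 cells with Ptgds and 4 of 9 without, and its part was not tested.

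Ptger3 was detected in 11 of 23 type B cells (47.8%, 26.8 to 69.4%; mean 46.25 TPM) and 15 of 87 type A cells (17.2%, 9.98 to 26.8%; mean 20.7 TPM), and in 1 of 74 principal, 1 of 32 non-epithelial and 0 of 19 proximal tubule cells, the last of which allows a share of up to 15.8%. The highest type A cell held 576.8 TPM and the highest type B cell 339.8 TPM. Both intercalated intervals lay above that of principal cells (0.0342 to 7.3%). The type A anion exchanger Slc4a1 was detected in 14 of the 15 type A cells with Ptger3, and the type B exchanger Slc26a4 in all 11 such type B cells. Means of the 4 thick ascending limb markers summed to 309.8 TPM for type A cells and 242.2 TPM for type B, beside 190.0 TPM for proximal tubule, 184.2 TPM for principal and 9.08 TPM for non-epithelial cells. In type A cells Slc12a1 was detected in 1 of 15 with Ptger3 and 2 of 72 without, and Umod in 3 of 15 and 14 of 72. In type B cells Slc12a1 was detected in 4 of 11 with Ptger3 and 2 of 12 without, and Umod in 5 of 11 and 2 of 12. The part of thick ascending limb RNA in the Ptger3 values was not tested, nor was that of the PNA sort in the type B values.

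Ptger1 was detected in 16 of 74 principal cells (21.6%, 12.9 to 32.7%; mean 15.4 TPM), 6 of 32 non-epithelial cells (18.8%, 7.21 to 36.4%; mean 8.849 TPM), 6 of 87 type A cells (6.9%, 2.57 to 14.4%), 1 of 19 proximal tubule cells and 0 of 23 type B cells, which allows a share of up to 13.0%. Principal and non-epithelial shares did not differ beyond their intervals. Of the 16 principal cells with Ptger1, 13 also had Ptgs1. Ptger4 was detected in 9 of 74 principal cells (12.2%, 5.71 to 21.8%) and 4 of 32 non-epithelial cells (12.5%, 3.51 to 29.0%), with overlapping intervals, and in 1 cell each of the other 3 types. A single principal cell at 435.8 TPM held 56.9% of the Ptger4 sum of its type. Only 2 principal cells had more than 1 EP receptor, both Ptger1 with Ptger4, of 24 with any.

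Ptger2 was detected in 2 of 32 non-epithelial cells, at 163.7 and 123.8 TPM. These were not the cells with Ptgs2. Csf1r, the macrophage growth factor receptor, and C1qa were detected in neither. C1qb was detected in 1 of them, at 1.69 TPM. Ptprc, the pan-leukocyte gene, was detected in both, as were Cd74 and Lyz2. In the other 30 non-epithelial cells Csf1r was detected in 21, C1qa in 29 and C1qb in 30. There Ptprc was detected in 28, Cd74 in 30 and Lyz2 in 27.

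Hpgd was detected in 19 of 32 non-epithelial cells (59.4%, 40.6 to 76.3%; mean 318.9 TPM), 12 of 74 principal cells (16.2%, 8.67 to 26.6%; mean 43.5 TPM), 2 of 23 type B cells (8.7%), 8 of 87 type A cells (9.2%) and 2 of 19 proximal tubule cells (10.5%). The non-epithelial interval lay above those of the other 4 types, and those 4 overlapped. Among non-epithelial cells, Csf1r was detected in 16 of 19 with Hpgd and 5 of 13 without, and C1qa in 19 of 19 and 10 of 13. By detection the other macrophage and leukocyte markers differed less. Ptprc was detected in 18 of 19 and 12 of 13, and Cd74 in 19 of 19 and 13 of 13. C1qb was detected in 19 of 19 and 12 of 13, and Lyz2 in 17 of 19 and 12 of 13.

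**Figure D5:**
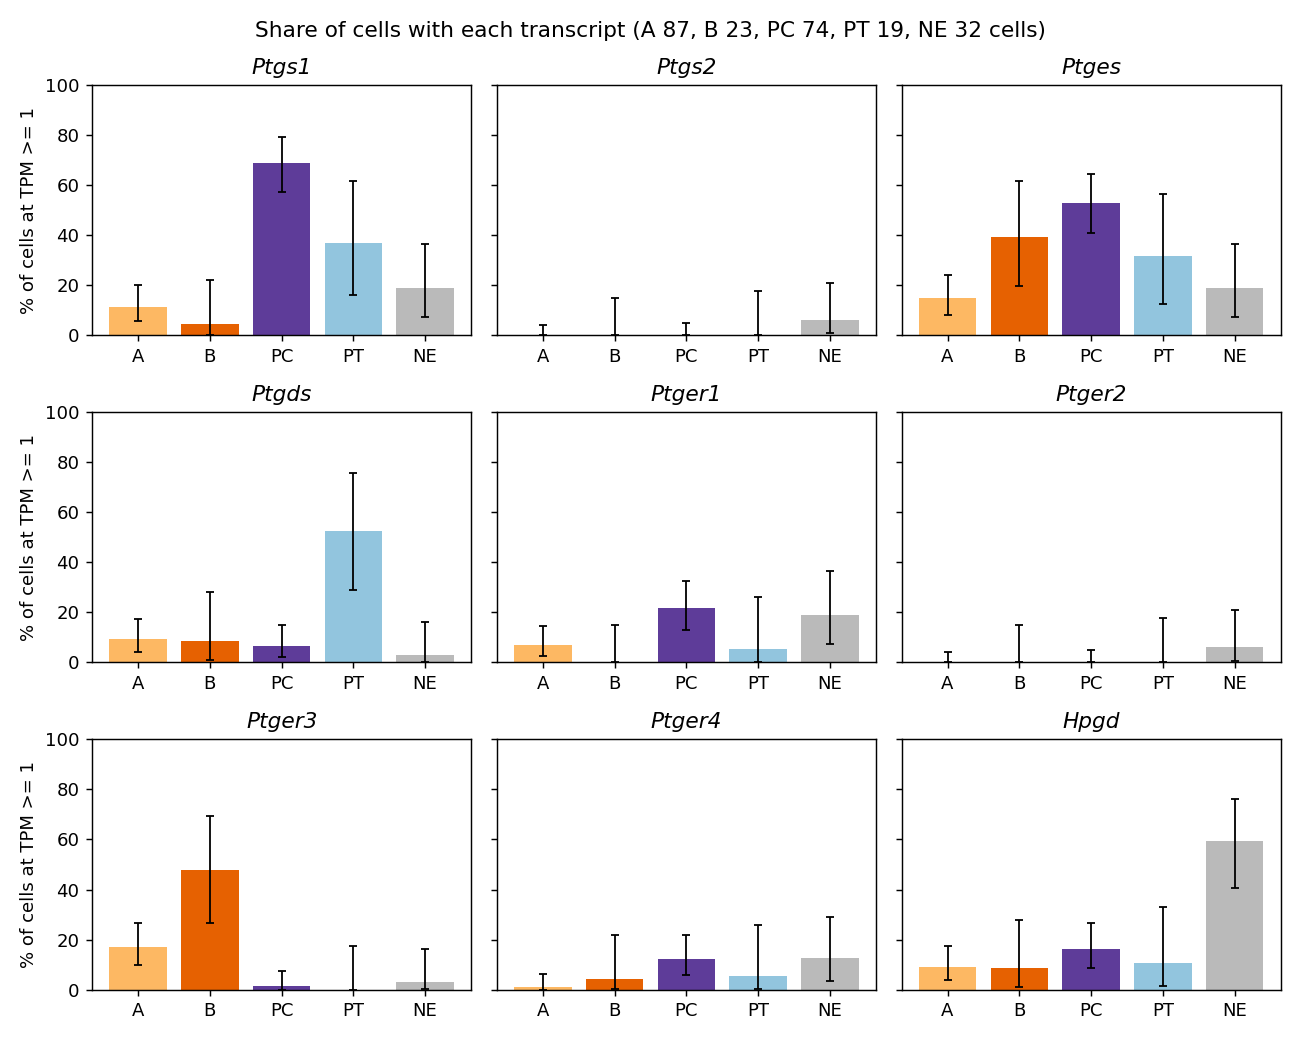
Share of cells at 1 TPM or more (vertical axis, percent) for each gene in type A (A), type B (B), principal (PC), proximal tubule (PT) and non-epithelial (NE) cells, with exact Clopper-Pearson 95% intervals as error bars. Ptgs1 peaks in PC at 68.9%, Ptger3 in B at 47.8%, Ptgds in PT at 52.6% and Hpgd in NE at 59.4%.

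Genes with the pattern most like a member over all single cells were taken by Pearson r of log2(TPM + 1) against 7279 genes whose mean over cells reached 10 TPM, for the 6 members detected in at least 20 cells. The cells share library type and differ in genes at 1 TPM or more (1092 to 4307). Their depth is unknown, and r is a description. The genes were Apela (0.58), Hsd11b2 (0.58) and Fxyd4 (0.57) for Ptgs1, and Cav1 (0.52), Stc1 (0.52) and Lgals3 (0.47) for Ptges. For Ptgds they were Dio1 (0.66), Gc (0.61) and Hao2 (0.60), and for Hpgd they were Cybb (0.54), Ms4a6b (0.53) and Pld4 (0.52). For Ptger3 the highest was Scand1 (0.42), and for Ptger1 no gene exceeded 0.32.

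Of 24 further genes of the pathway, covering release of arachidonic acid, other synthases, other prostanoid receptors, transport and breakdown, 17 were tested in tubules. There 2 were higher in CCD (Ptgfr and Tbxa2r; 13.2% of all genes tested were called so), 5 lower (Pla2g12a, Tbxas1, Slco2a1, Slco3a1 and Ptgr2; 5.5% of all genes) and 10 not called, with a median difference of -0.10 beside 0.31 over all genes. Ptgfr, the prostaglandin F receptor, was at 53.72 to 154.5 TPM in CCD and 6.64 to 34.22 TPM in cTAL (log2 difference 2.49 ± 0.29 SE, adjusted p = 6.72e-07 by limma). Tbxas1, thromboxane synthase, was at 0.01 to 13.57 TPM in CCD and 28.73 to 72.23 TPM in cTAL (-4.39 ± 0.49 SE, adjusted p = 2.95e-07 by limma). Neither gene's segments overlapped. The Ptgr2 call was lost in 17 of 30 alternatives, among them leaving out any 1 of 12 tubules (m1_CCD1, m2_cTAL1, m3_CCD2, m3_cTAL1, m4_CCD2, m4_cTAL1, m6_CCD1, m6_CCD2, m6_cTAL2, m7_CCD2, m7_cTAL1 or m7_cTAL2), with differences of -0.75 to -0.40 over all 30. The Pla2g12a call was lost with means per column prefix.

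In c-Kit against DBA cells 21 of the 24 were tested, 4 were higher (Pla2g12a, Ptges2, Cbr1 and Ptgr2; 16.1% of all genes tested were called so), 13 lower (28.1%) and 4 not called, with a median of -0.77 beside -0.11 over all genes. The 13 included Pla2g4a, the cytosolic phospholipase that releases arachidonic acid (17.68 and 16.53 TPM in c-Kit, 39.73 and 36.95 TPM in DBA samples), Hpgds, haematopoietic prostaglandin D synthase (2.27 to 2.36 TPM against 12.72 to 16.62 TPM), and Ptgfr (35.24 to 35.79 TPM against 98.59 to 107.7 TPM). Without DBA replicate 1 the calls of Cbr1, Akr1b3, Fam213b and Tbxa2r were lost, and without DBA replicate 2 those of the same 4 genes and of Ptgr1, Ptgr2 and Slco2a1. Leaving out c-Kit replicate 1 ended the call of Akr1b3, and leaving out c-Kit replicate 2 ended those of Cbr1, Fam213b and Tbxa2r.

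In GFP-positive against GFP-negative cells 22 were tested, 3 were higher (Pla2g4a, Ptgfr and Abcc4; 15.2% of all genes tested were called so), 7 lower (17.3%) and 12 not called, with a median of -0.38 beside 0.02 over all genes. Abcc4, a transporter that exports prostaglandins, was at 96.8 to 106.6 CPM in GFP-positive and 43.66 to 51.61 CPM in GFP-negative samples (1.09 ± 0.18 SE, adjusted p = 0.00203 by edgeR). Slco2a1, the prostaglandin uptake transporter, was at 23.88 to 29.89 CPM and 76.07 to 83.87 CPM (-1.57 ± 0.20 SE, adjusted p = 0.00052 by edgeR). Calls of Ptgfr, Abcc4, Slco2a1, Slco3a1 and Pla2g5 in this comparison were lost in limma on RPKM. With 1 sample left out, Pla2g2d and Tbxa2r lost theirs without GFP-negative replicate 1 or either GFP-positive replicate, Hpgds without GFP-negative or GFP-positive replicate 1, and Pla2g5 without GFP-negative replicate 2.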

How the data were processed

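RNA was measured in single cells, 8 sorted bulk samples and 19 tubules. The authors deposited TPM values, abundances scaled by the authors to a fixed total per sample, for cells, c-Kit and DBA samples and tubules (for tubules the unit was read from the column sums). For the GFP samples the deposited counts are raw reads per gene made by the authors with HTSeq-count, on mm10 with RefSeq genes, per the file headers and names. The deposited RPKM values were scaled by the authors by gene length and library total, per the file headers and names. The submitters' processing notes name STAR 2.5.1b, RSEM 1.2.31, Seurat and GRCm38.p5, with no role given. Reads in no gene (66.5% to 72.7% of listed reads) were left out of all fits. Whether counting used strand is not stated in the sources at hand, so values of members whose exons overlap other annotated genes, among them Ptger2, Ptger4 and Ptgs1, are uncertain; values of 1 gene are not reported here. The number of per-sample columns not used was 0.

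Samples were grouped by title. Counts were compared with edgeR 4.0.16 (TMM, filterByExpr, quasi-likelihood) in R 4.3.3, and TPM with limma 3.58.1 on log2(TPM + 1) with a variance trend, where a pseudocount of 1 understates changes of low genes. Adjustment ran over all genes tested in each comparison. Only the groups compared entered a fit, without covariates. Shares of cells were computed with scipy 1.17.1. All cells were kept, the cell types are the authors', and no doublet caller was run. Running numbers of single-cell columns are not stated to be those of the titles, so sort labels were not assigned to cells. Each fit was tested on simulated data with independent samples and a fixed spread for all genes. The real samples need not follow that setting, so it does not bear on the calls above.

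The 9 members, the 24 pathway genes and the markers were chosen with earlier results of these data known. Named genes are the members, pathway genes called in a comparison or with a mean of at least 20 TPM in a cell type, the 3 genes most like each member detected in at least 20 cells, and genes overlapping a member. Alternatives were DESeq2 1.42.0, other size factors, filters, pseudocounts of 0.1 and 5, quantile normalization, sample weights, RPKM, replicate blocks, leaving out samples and other summaries over cells.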

Additional observations from a re-analysis of the deposited data

Results flagged for a closer look

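In the 8 cTAL tubules, 3 members had a highest value far from the other tubules relative to the group's range. In normally distributed data chance gives such a value in about 1 in 20 groups, and 8 members with any signal were looked at. Skewed levels and levels near 0 need not follow that rate. Ptger1 was at 34.1 TPM in m3_cTAL1 and at 0.69 to 9.72 TPM in the others. Ptges was at 2.05 TPM in m7_cTAL2 and at 0.08 to 0.47 TPM in the others. Ptgs2 was at 0.01 TPM in m2_cTAL1 and listed at 0 in the others, a level too low to read. The tubule m3_cTAL1 had 8094 genes at 1 TPM or more, the fewest among cTAL. The 11 CCD were too many for the criterion, and groups of 2 too few.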

How the results depend on the processing

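Over 22 differences of members and 374 recomputations, 345 kept direction and side of the threshold, 25 lost the call (in Hpgd in tubules, and in Ptger1, Ptgs2 and Ptgds in GFP samples), 1 gained it and 3 reversed. The reversals were all of Ptger3 in GFP samples, which was not called: -0.05 in limma on RPKM, -0.05 there with the replicate block by experiment, and -0.15 to 0.51 with 1 sample left out, lowest without GFP-positive replicate 1. Hpgd in tubules also lost its call with means per prefix (2.32, adjusted p = 0.107 by limma), without a filter (2.40, 0.0968) and with a pseudocount of 0.1 (3.19, 0.103). Over 34 differences of the other pathway genes and 491 recomputations, 429 kept direction and side of the threshold and 62 lost the call.

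Genes called in tubules went from 2526 to 4401 with sample weights, and ranged from 2239 to 3078 with 1 tubule left out. Genes called in GFP samples fell from 5101 to 1639 in limma on RPKM and to 2157 with the replicate block by experiment, and ranged from 3616 to 4211 with 1 sample left out. In c-Kit and DBA samples they ranged from 3458 to 5701 with 1 sample left out, where the lone sample is assumed to vary like the other group. The causes were not tested.

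Same-numbered samples deviated together with r = 0.143 (GFP) and 0.026 (c-Kit and DBA), and the titles give only the number. Columns of the RPKM table name a first and a second experiment for both GFP fractions, but do not say which numbered sample came from which. With the replicate block 5897 and 6271 genes were called, and no member's call changed. The planned block by the running number of the tubules was not run, since the columns carry no such number. Prefixes of the tubule columns (m1 to m7), unexplained in the labels, were used as a block after seeing the columns: correlations ranged from 0.004 to 0.145, 2588 genes (2763 with a random block) were called, and the 7 members kept their calls. Leaving out m2_CCD2, m2_cTAL1 and m3_cTAL1, a choice made after seeing the data, gave 2891 genes and kept the 7 members' calls.

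The cell type with the highest mean TPM changed for Ptgs1, from type A to principal cells, by the mean of log2(TPM + 1) or without the highest cell. By the median it was principal cells for Ptgs1 and non-epithelial cells for Ptger1, which also had the highest share of Ptger1 at a threshold of 0.1 TPM, where Ptger4 had its highest share in principal cells. For Ptger4 the type with the highest mean changed from principal to non-epithelial cells by the mean of log2(TPM + 1). Depth is known only for the GFP samples, so in the other tables a low TPM cannot be read as absence.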

Other observations

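Other pathway genes differed in how widely the single cells held them. Ptges3, a cytosolic prostaglandin E synthase better known as the co-chaperone p23, was detected in 86 of 87 type A, 73 of 74 principal, 19 of 19 proximal tubule, 32 of 32 non-epithelial and 18 of 23 type B cells. Ptgfr was detected in 36 of 74 principal cells (48.6%, exact 95% interval 36.9 to 60.6%; mean 128.8 TPM) and in 16 of 87 type A cells (18.4%, 10.9 to 28.1%). In type B it was detected in 8 of 23 cells (34.8%, 16.4 to 57.3%), an interval that overlapped that of principal cells. It was detected in 3 of 19 proximal tubule cells, with a mean of 135.5 TPM of which 1 cell held 86.1%, and in 2 of 32 non-epithelial cells. Hpgds and Tbxas1 were each detected in 11 of 32 non-epithelial cells, with means of 111.7 and 50.98 TPM.

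The type A cell with 16329 TPM of Ptgs1 had 1392 genes at 1 TPM or more, Atp6v1b1 at 8024 TPM, Slc4a1 at 22.01 TPM and no Ptges. Another cell named type A held the mast cell transcripts Cpa3 (6459 TPM) and Cma1 (8032 TPM), with Kit at 1073 TPM, Ptgs1 at 0.88 TPM and Hpgds at 0.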
